A study of Bombyx mori with 6 samples.

Results

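Aminoacyl-tRNA synthesis genes of the silkworm Bombyx mori were examined in RNA sequencing libraries labelled fat body. The 43 gene models were chosen by an annotation rule, with earlier results of these data known. A model was taken if its KEGG pathway column named aminoacyl-tRNA biosynthesis or its protein name was that of a tRNA ligase or tRNA synthetase, which gave 43 of the 16877 models in the table, 40 of them by name as well. By product name they fell into 24 cytosolic synthetase models, 16 mitochondrial synthetase models and 3 models of other enzymes that act on charged tRNA. The 15 cytosolic placements that the protein name in NR or Swiss-Prot states were taken as given. For tyrosine the NR product name states none. The other 9, glycine and valine among them, were placed by the absence of a mitochondrial name.

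The libraries were 3 labelled siUFBP1 and 3 labelled siNC. UFBP1 is a protein of the endoplasmic reticulum that takes part in ufmylation, the attachment of the small modifier UFM1 to other proteins, and siNC is a negative control siRNA. Per the protocols, the animals were larvae of the P50 strain on day 3 of instar 5, 30 in number, each injected with 2.5 µg of siRNA and given 5 µL of a suspension of the baculovirus BmNPV 12 h later. All libraries therefore share the virus and an siRNA injection, and no uninfected or uninjected group was analysed here. Fat body was taken at 24, 48 and 72 h, and the labels do not say which time a library stands for, nor whether animals were pooled. The same labels also name BmN, a cell line derived from silkworm ovary, and describe its transfection, so the source of each library is only as certain as the tissue label.

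Aminoacyl-tRNA synthetases join each amino acid to its tRNA and so set out the building blocks that ribosomes use. The cytosol and the mitochondrion have separate sets, both encoded in the nucleus, and in human cells several cytosolic enzymes sit together in a large complex held by scaffold proteins. The fat body is the insect's organ of protein storage and metabolism, while the silk gland makes fibroin, a protein built mostly from glycine and alanine with serine and tyrosine. In the posterior silk gland of Bombyx mori the tRNAs and synthetases for these amino acids are classically known to be abundant.

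The libraries differed widely across the transcriptome. Totals were 25570725 to 53204480 counts in the siUFBP1-labelled libraries, the third being the deepest, and 27100565 to 31760120 counts in the siNC libraries, so that 3 counts correspond to 0.0564 to 0.117 CPM (counts scaled to a common library total). Of 10729 gene models tested with edgeR's quasi-likelihood test, 68.4% passed a Benjamini-Hochberg adjusted p of 0.05, 40% of them all as higher and 28.4% as lower in the siUFBP1-labelled libraries. UFBP1 itself (KWMTBOMO13599) was no lower in the libraries labelled for its knockdown, with a mean of 33.9 ± 1.05 CPM against 34 ± 2.71 CPM in siNC (SD, n = 3 each, edgeR adjusted p = 0.951). The chaperone BiP (KWMTBOMO08642) averaged 1152 ± 8.03 CPM in siUFBP1-labelled libraries and 2639 ± 56.2 CPM in siNC. Nothing in the labels says that the 3 libraries of a group came from separate animals, so every p-value here measures only the spread between libraries.

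How the libraries were scaled set the sign of many of the values that follow. Storage protein transcripts took up much of each siNC library, and the scaling factors of the trimmed mean of M-values (TMM) were 1.28 to 1.38 for siUFBP1-labelled and 0.746 to 0.767 for siNC libraries. The median log2 fold change (siUFBP1 over siNC) of all tested genes was 0.11 after TMM, -0.03 after upper quartile scaling and 0.92 with library size alone, which the deposited FPKM values also follow. The median of the cytosolic synthetases lay 0.55 below that of all tested genes after TMM, a distance that a change of scaling leaves as it is by construction; on log2(FPKM + 1) values, which also change the values and the genes tested, the cytosolic median minus that of all genes was -0.36, and with no filter it was -0.64. CPM values and fold changes below are after TMM unless stated. Shares and ratios within a library do not depend on the scaling.

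**Figure D1:**
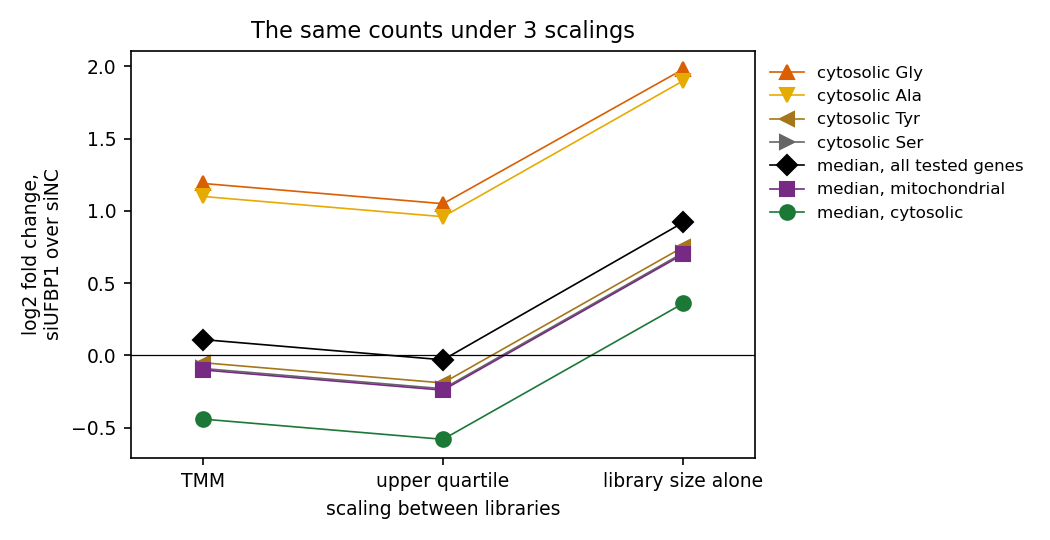
Log2 fold change (siUFBP1 over siNC, vertical axis) of the cytosolic glycine, alanine, tyrosine and serine enzymes and the medians of all tested genes, mitochondrial synthetases and cytosolic synthetases under 3 scalings (horizontal axis). A scaling shifts every gene alike, so the lines are parallel by construction; the median of all genes is 0.11, -0.03 and 0.92, and the serine, tyrosine and cytosolic values change sign with it while glycine and alanine do not.

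Of the 24 cytosolic enzymes, those for glycine and alanine passed as higher, each by more than 2-fold. Glycine--tRNA ligase (KWMTBOMO08652), which charges the commonest amino acid of fibroin, had 345, 343 and 342 CPM in siUFBP1-labelled libraries, against 149, 150 and 153 CPM in siNC libraries. The groups lay far apart, with libraries of a group within a few CPM of each other. Its fold change was 2.28 (log2 1.19 ± 0.03 SE, edgeR adjusted p = 1.45e-16). Alanine--tRNA ligase, cytoplasmic (KWMTBOMO01927) had 323, 322 and 318 CPM in siUFBP1-labelled libraries, against 148, 154 and 147 CPM in siNC libraries. Again every siUFBP1-labelled library was above every siNC library, with a fold change of 2.14 (log2 1.10 ± 0.03 SE, edgeR adjusted p = 7.29e-16). Both enzymes were higher under every scaling and tool tried. The log2 fold changes were lowest with upper quartile scaling, at 1.05 for glycine and 0.96 for alanine, and highest with library size alone, at 1.98 and 1.90.

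Serine and tyrosine, the other amino acids abundant in fibroin, did not pass. Serine--tRNA ligase, cytoplasmic (KWMTBOMO11680) had 71.4, 67.3 and 70.2 CPM in siUFBP1-labelled libraries, against 73.2, 76.9 and 71.5 CPM in siNC libraries. These ranges all but touch, and the log2 fold change of -0.09 ± 0.04 SE did not pass (edgeR adjusted p = 0.0685); it passed as lower without siNC replicate 3 (-0.11) and with upper quartile scaling (-0.23), and as higher with library size alone (0.71). Tyrosinyl-tRNA synthetase (KWMTBOMO12560) had 96.2, 93 and 96.4 CPM in siUFBP1-labelled libraries, against 100, 96.7 and 97.7 CPM in siNC libraries. Its log2 fold change was -0.05 ± 0.04 SE (edgeR adjusted p = 0.257), and it too passed as lower with upper quartile scaling (-0.19) and as higher with library size alone (0.75).

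Ratios of counts within each library set the 4 enzymes against each other without any scaling. Glycine enzyme counts were 4.93 ± 0.142 times the serine enzyme counts in siUFBP1-labelled libraries and 2.04 ± 0.097 times in siNC libraries (SD, n = 3 each, exact permutation p = 0.1, the smallest that 3 against 3 libraries can give). Alanine enzyme counts were 3.38 ± 0.081 times those of tyrosine in siUFBP1-labelled libraries and 1.52 ± 0.0632 times in siNC libraries, also without overlap (exact permutation p = 0.1). The tyrosine to serine ratio overlapped between groups, at 1.37 ± 0.0177 in siUFBP1-labelled and 1.33 ± 0.0649 in siNC libraries (exact permutation p = 0.5). Glycine and alanine kept nearly the same ratio to each other, 1.07 ± 0.00411 in siUFBP1-labelled and 1.01 ± 0.034 in siNC libraries, although these groups did not overlap either (exact permutation p = 0.1).

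**Figure D2:**
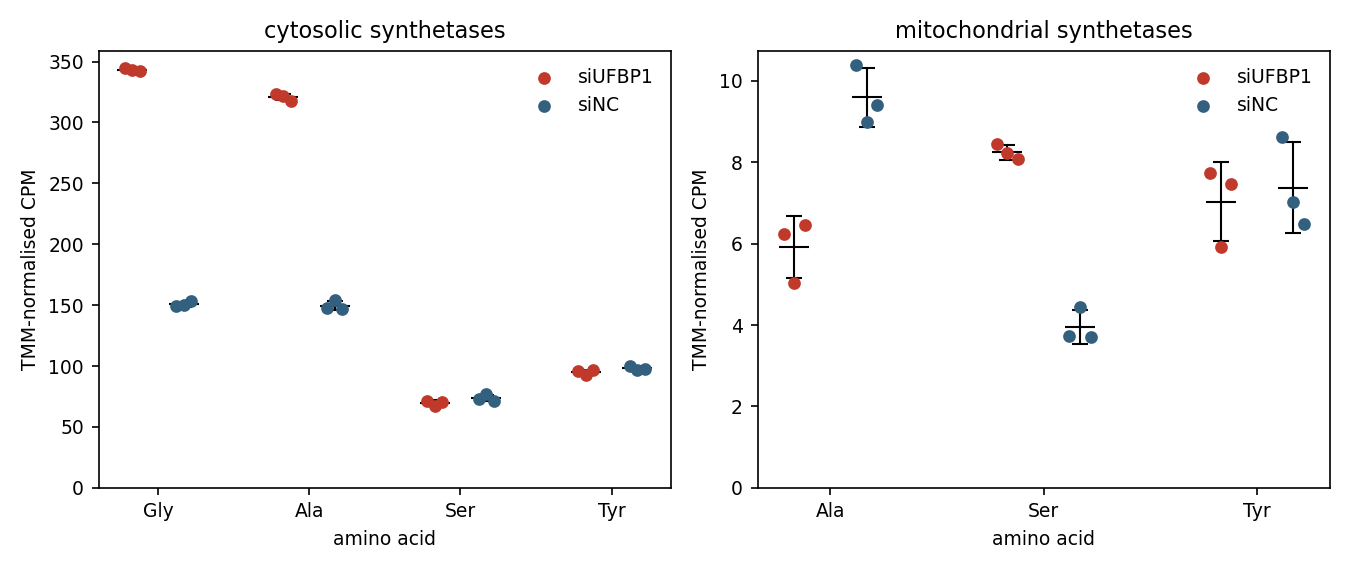
TMM-normalised CPM (vertical axes, from 0) of the synthetases for glycine, alanine, serine and tyrosine (horizontal axes), cytosolic on the left and mitochondrial on the right. Points are libraries, siUFBP1 left of siNC, and bars are mean ± SD of 3; cytosolic glycine and alanine sit at 318 to 345 CPM in siUFBP1-labelled libraries, all above the 147 to 154 CPM of siNC, while the siUFBP1 and siNC means lie 69.6 against 73.9 CPM for serine and 95.2 against 98.3 CPM for tyrosine.

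Levels between genes can be set side by side per transcript length, in FPKM. In both groups the glycine enzyme had the highest FPKM of the 24 cytosolic models, 164 ± 5.54 in siUFBP1-labelled and 41.9 ± 0.442 in siNC libraries, where the medians of the cytosolic models were 16.7 and 12.6. Alanine had rank 2 in siUFBP1-labelled libraries at 120 ± 3.61 FPKM and had 32.5 ± 1.34 FPKM in siNC libraries. The tyrosine enzyme had rank 3 in siUFBP1-labelled libraries at 61.8 ± 3.11 FPKM and rank 2 in siNC libraries at 37.2 ± 0.79 FPKM. The serine enzyme had 49.1 ± 2.5 FPKM in siUFBP1-labelled and 30.4 ± 1.63 FPKM in siNC libraries. Enzymes for fibroin amino acids thus held the first ranks in siUFBP1-labelled libraries, while asparagine, at 35.2 ± 1.31 FPKM, had rank 3 in siNC libraries, next to tyrosine.

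Markers of other tissues moved with this difference. Transcripts of 8 silk gland genes together held 10.1 to 11.8% of counts in siUFBP1-labelled libraries, against 0.05 to 0.053% in siNC libraries; 7 of the 8 were detected in siUFBP1-labelled and 6 in siNC libraries, and 5 of the 6 tested were higher. Fibroin heavy chain (KWMTBOMO15365) averaged 71698 ± 9501 CPM in siUFBP1-labelled and 107 ± 6.99 CPM in siNC libraries. Fibroin light chain (KWMTBOMO08464), its partner, had FPKM of 12356 ± 313 in siUFBP1-labelled and 17.3 ± 0.68 in siNC libraries, and fibrohexamerin (KWMTBOMO01001), the third part of the secreted complex, 2685 ± 54.3 and 14.3 ± 0.983. Over 44 fat body genes, storage proteins and lipoproteins among them, the share was 47.8 to 49.3% in siUFBP1-labelled and 74.4 to 74.8% in siNC libraries. Of 31 tested, 27 were lower and 1 higher after TMM (background 28.4% lower), and 18 were lower and 8 higher with library size alone. Sex-specific storage-protein 1 (KWMTBOMO13992) averaged 12670 ± 321 CPM in siUFBP1-labelled and 167619 ± 4070 CPM in siNC libraries. The part of these tissues in the synthetase values was not tested, and in bulk libraries fewer cells of a type and less RNA per cell cannot be told apart.

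Other tissues' markers were present at lower levels, and their counts of calls stand beside a background of 40% higher and 28.4% lower. A list of 62 testis and sperm flagellum genes (34 of 35 tested higher) summed to 0.0483 to 0.0575% of counts in siUFBP1-labelled and 0.000979 to 0.0011% in siNC libraries, and 3 of them, testis-specific kinases KWMTBOMO15186 and KWMTBOMO11573 and tektin-4-like KWMTBOMO16172, had no count in any siNC library. Muscle genes, 25 in number (of 18 tested, 10 higher and 5 lower after TMM, 14 higher and 0 lower with library size alone), held 0.274 to 0.292% in siUFBP1-labelled and 0.0946 to 0.0989% in siNC libraries. Cuticle genes, 166 in number (39 of 47 tested higher), held 0.193 to 0.209% in siUFBP1-labelled and 0.0438 to 0.0439% in siNC libraries. Midgut genes, 60 in number (11 of 13 tested higher), held 0.0116 to 0.0127% in siUFBP1-labelled and 0.00648 to 0.00717% in siNC libraries. Hemocyte genes, 37 in number (of 25 tested, 18 lower and 4 higher after TMM, 7 lower and 10 higher with library size alone), held 0.0262 to 0.0276% in siUFBP1-labelled and 0.0223 to 0.0232% in siNC libraries. The 31 ovary and germ line genes (of 7 tested, 5 lower and 1 higher after TMM, 0 lower and 3 higher with library size alone) held 0.0219 to 0.0237% in siUFBP1-labelled and 0.0147 to 0.0158% in siNC libraries.

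With 42 silk, storage and lipoprotein genes left out of the denominator, the glycine enzyme took 0.111 ± 0.000475% of the counts that remained in siUFBP1-labelled libraries, against 0.0441 ± 0.000276% in siNC libraries, a ratio of 2.51. Only the denominator changes in this way. Synthetase transcripts from any tissue stay in the counts, and their part was not tested. Alanine took 0.104 ± 0.000703% in siUFBP1-labelled and 0.0438 ± 0.00121% in siNC libraries, a ratio of 2.37. The other cytosolic synthetases together went the other way, with 0.237 ± 0.00305% in siUFBP1-labelled and 0.296 ± 0.0038% in siNC libraries. Neither range overlapped its counterpart in the other group.

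Outside the fibroin amino acids the cytosolic set leaned downward. Of all 24 cytosolic models 2 rose, 14 fell and 8 did not pass, against a background of 40% higher and 28.4% lower, and their median log2 fold change was -0.44 where that of all tested genes was 0.11; with library size alone the counts were 15 higher and 6 lower. The 2 that rose were those for glycine and alanine. Among the 20 models for other amino acids, none passed as higher, 14 fell and 6 did not pass, with a median of -0.51. At least 2-fold lower were 6 of the 24, where 5.11% of all tested genes were, and these 6 also passed as lower with library size alone. Both models of the glutamate/proline gene are among the 6. With models of the same gene number summed, 2 cytosolic genes rose and 12 fell after TMM. In 19 of 24 the groups did not overlap in CPM, compared with 71.2% of all tested genes.

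The cytosolic enzymes that fell 2-fold or more after TMM served valine, glutamate and proline, methionine, asparagine and phenylalanine. With library size alone their log2 fold changes ran from -0.81 (valine, KWMTBOMO04768) to -0.25 (phenylalanine, KWMTBOMO03691), so none then reached 2-fold. Valine--tRNA ligase (KWMTBOMO04768) fell most, with 18.4, 18.6 and 17.7 CPM in siUFBP1-labelled libraries, against 51.4, 57.7 and 57.8 CPM in siNC libraries (log2 fold change -1.61 ± 0.05 SE, edgeR adjusted p = 1.04e-14). The bifunctional glutamate/proline--tRNA ligase, which in animals joins both activities in 1 protein, is split here over 2 models of the same gene number. Its minor model (KWMTBOMO15359) had 7.06, 5.68 and 5.23 CPM in siUFBP1-labelled libraries, against 15.7, 17.4 and 13.4 CPM in siNC libraries (log2 fold change -1.40 ± 0.11 SE, edgeR adjusted p = 3.26e-09). Its major model (KWMTBOMO15357) had 38.7, 38.2 and 39 CPM in siUFBP1-labelled libraries, against 82.3, 87.3 and 83.1 CPM in siNC libraries, and the 2 summed gave a log2 fold change of -1.16 ± 0.04 SE.

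Methionine--tRNA ligase, cytoplasmic (KWMTBOMO00722), which charges the initiator tRNA as well as the elongator, had 15.3, 14.6 and 17 CPM in siUFBP1-labelled libraries, against 34.7, 34.6 and 34.5 CPM in siNC libraries (log2 fold change -1.13 ± 0.06 SE, edgeR adjusted p = 9.34e-12); the model's annotation also lists an ATPase inhibitor domain, so its counts may not be the enzyme's alone. Asparagine--tRNA ligase (KWMTBOMO09838) averaged 49.4 ± 0.548 CPM in siUFBP1-labelled and 103 ± 3.31 CPM in siNC libraries, a log2 fold change of -1.06 ± 0.04 SE. All of these stood clear of their counterparts, each siUFBP1-labelled library being below every siNC library.

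Smaller decreases covered leucine, lysine, threonine, aspartate, tryptophan and cysteine, and their sign turned with library size alone except for 1 leucine model, KWMTBOMO08046, which then did not pass (-0.13). The leucine models, of the same gene number, had log2 fold changes (± SE) of -0.74 ± 0.05 (KWMTBOMO08045) and -0.93 ± 0.09 (KWMTBOMO08046), and -0.79 ± 0.05 when summed. A valine model of another gene number than KWMTBOMO04768, KWMTBOMO14444, had -0.61 ± 0.11. Neither valine name states a compartment, and no model was named as mitochondrial for valine. Lysine (KWMTBOMO02088) had -0.54 ± 0.04, threonine (KWMTBOMO11336) -0.49 ± 0.05, aspartate (KWMTBOMO00927) -0.48 ± 0.05 and tryptophan (KWMTBOMO15341) -0.40 ± 0.06. Cysteine's main model (KWMTBOMO07784) was at -0.18 ± 0.07 with an edgeR adjusted p of 0.0334, a call lost without siUFBP1 replicate 1, siUFBP1 replicate 3, siNC replicate 2 or siNC replicate 3 (-0.14 to -0.19), with no filter and with DESeq2's Wald test. Arginine (KWMTBOMO01452) at 0.05 ± 0.04, glutamine (KWMTBOMO07874) at 0.05 ± 0.05, histidine (KWMTBOMO07952) at 0.06 ± 0.05, isoleucine (KWMTBOMO12628) at -0.01 ± 0.04 and cysteine's minor model (KWMTBOMO07783) at -0.14 ± 0.12 did not pass. In CPM, the isoleucine enzyme averaged 64.6 ± 2.64 in siUFBP1-labelled and 65.1 ± 2.6 in siNC libraries, with overlapping ranges.

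**Figure D3:**
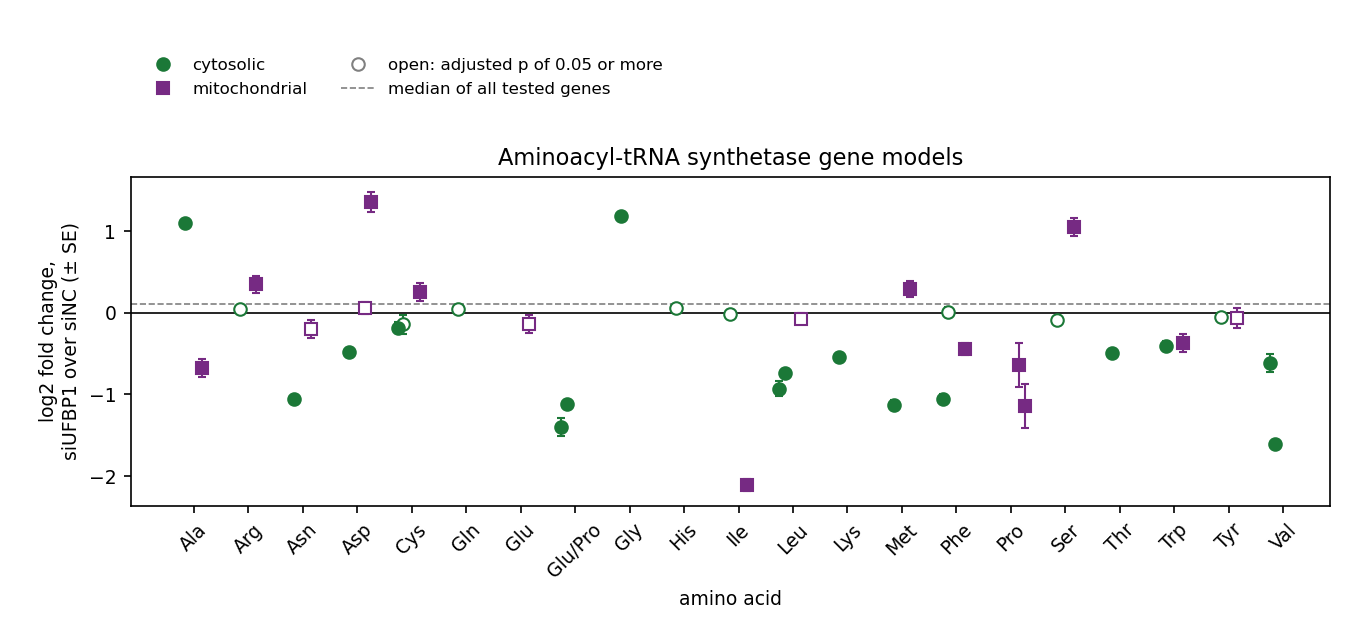
Log2 fold change after TMM (siUFBP1 over siNC, vertical axis, ± SE) of the 40 synthetase gene models by amino acid (horizontal axis), with cytosolic models as circles and mitochondrial models as squares; open symbols did not pass an adjusted p of 0.05. Cytosolic glycine and alanine stand at 1.19 and 1.10, no other cytosolic model exceeds 0.06, and the mitochondrial models spread from -2.11 to 1.36.

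The 2 subunits of the phenylalanine enzyme did not move together. Cytosolic phenylalanyl-tRNA synthetase is built from alpha subunits, which carry the catalytic site, and beta subunits. The alpha subunit model (KWMTBOMO03691) had 16.8, 16.1 and 16.6 CPM in siUFBP1-labelled libraries, against 34.6, 33.1 and 35.1 CPM in siNC libraries (log2 fold change -1.05 ± 0.05 SE, edgeR adjusted p = 4.53e-12). The beta subunit model (KWMTBOMO03301) had 20.9, 20.1 and 19.9 CPM in siUFBP1-labelled libraries, against 20.5, 18.8 and 21.2 CPM in siNC libraries, and did not pass (0.01 ± 0.06 SE, edgeR adjusted p = 0.884). The count ratio of alpha to beta was 0.813 ± 0.0179 in siUFBP1-labelled and 1.70 ± 0.0535 in siNC libraries (exact permutation p = 0.1, the smallest possible), a ratio that no scaling alters.

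Enzymes that form the multisynthetase complex in human cells were read as a group. Of 10 models for glutamate/proline, isoleucine, leucine, methionine, glutamine, arginine, lysine and aspartate, 7 fell and 3 did not pass after TMM (median log2 fold change -0.64; background 28.4% lower), while with library size alone 5 rose and 3 fell. Of 10 models outside that group, without the fibroin amino acids, 7 fell and 3 did not pass after TMM as well (median -0.45), and 6 rose and 3 fell with library size alone. Some genes enter as 2 models with the same gene number: glutamate/proline and leucine in the first group, cysteine in the second. These counts of models are therefore not counts of separate genes. Structural class was told from the names of the annotated domains, for the phenylalanine beta subunit from a beta subunit domain. After TMM, of 11 class I models 7 fell and 4 did not pass. Of 11 class II models 2 rose, 6 fell and 3 did not pass, against a background of 40% higher and 28.4% lower. With library size alone 6 of the class I models rose and 3 fell, and 8 of the class II models rose and 3 fell. The scaffold protein AIMP1 (KWMTBOMO13696) had 16.1, 16.3 and 16.7 CPM in siUFBP1-labelled libraries and 18.9, 17.2 and 19.1 CPM in siNC libraries, a log2 fold change of -0.17 ± 0.06 SE that passed as lower after TMM. The second scaffold gene found, eukaryotic translation elongation factor 1 epsilon-1 (KWMTBOMO11553), was at 0.13 ± 0.09 SE and did not pass; with library size alone both of these scaffold genes passed as higher.

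As shares of all cytosolic synthetase counts, the change amounted to a tilt toward glycine and alanine. Glycine took 24.5, 24.7 and 24.5% in siUFBP1-labelled libraries, against 11.6, 11.3 and 11.7% in siNC libraries. Alanine took 22.9, 23.2 and 22.9% in siUFBP1-labelled libraries, against 11.4, 11.6 and 11.2% in siNC libraries. Together they held 47.5 ± 0.29% in siUFBP1-labelled and 22.9 ± 0.0562% in siNC libraries. With serine and tyrosine added, the 4 enzymes held 59.3 ± 0.0879% in siUFBP1-labelled and 36.1 ± 0.305% in siNC libraries. Counted per length, in FPKM, glycine and alanine together held 40.4 ± 0.22% in siUFBP1-labelled and 18.4 ± 0.0853% in siNC libraries.

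With glutamate and proline as 1, there were 19 cytosolic amino acid groups. The shares of 2 were higher, those of 13 were lower, and those of 4 overlapped between the groups of libraries. In CPM, 71.2% of all tested genes did not overlap. Shares add up to a fixed total, so the gain of glycine and alanine lowers the shares of the rest by construction. Valine, summed over models of 2 gene numbers, showed the greatest relative loss, with 1.7 ± 0.034% in siUFBP1-labelled and 4.88 ± 0.258% in siNC libraries. Glutamate/proline had 3.19 ± 0.045% in siUFBP1-labelled and 7.6 ± 0.257% in siNC libraries. Asparagine had 3.53 ± 0.0369% in siUFBP1-labelled and 7.86 ± 0.169% in siNC libraries, and had rank 9 in siUFBP1-labelled libraries where it had rank 3 in siNC.

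When glycine and alanine were left out of the total, serine and tyrosine were not the leaders of what remained. The serine share of the remaining 17 groups was 9.49 ± 0.173% in siUFBP1-labelled and 7.31 ± 0.213% in siNC libraries, a ratio of 1.3. The tyrosine share was 13 ± 0.156% in siUFBP1-labelled and 9.73 ± 0.332% in siNC libraries, a ratio of 1.33. Histidine and arginine had ratios of 1.43, glutamine 1.42 and isoleucine 1.37, so tyrosine had rank 5 and serine rank 6 of 17. All 6, and cysteine at 1.23, were without overlap between the groups. Among the 17 groups the shares of 7 were thus higher, those of 6 were lower, and those of 4 overlapped. In CPM, 71.2% of all tested genes did not overlap. These shares also add up to a fixed total, so a higher share need not be a rise of the enzyme. Cysteine's models summed had a log2 fold change of -0.17 ± 0.06 SE after TMM.

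**Figure D4:**
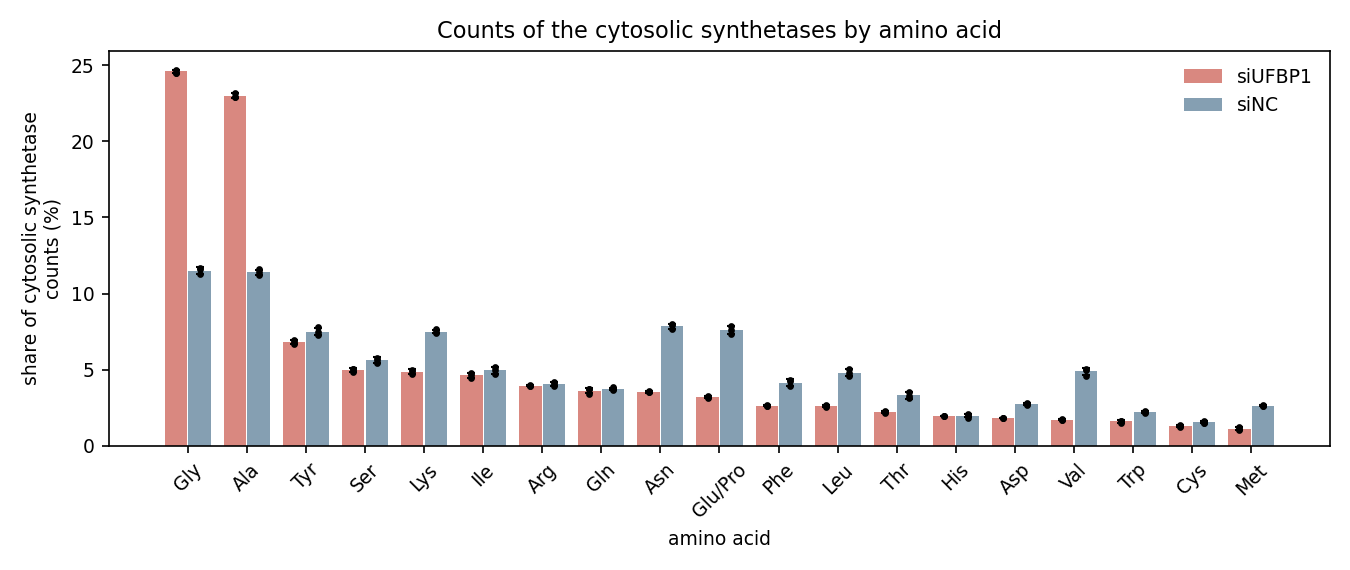
Share of cytosolic synthetase counts (vertical axis, percent, from 0) by amino acid (horizontal axis) in siUFBP1 (left bars) and siNC libraries (right bars), as mean ± SD of 3 with each library as a point. Glycine and alanine hold 24.6 and 23% in siUFBP1-labelled libraries against 11.5 and 11.4% in siNC, and most other amino acids hold less.

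Of the 16 mitochondrial models 5 rose, 6 fell and 5 did not pass (median log2 fold change -0.10, against 0.11 for all tested genes), so 11 of 16 were called, near the background of 68.4% (40% higher, 28.4% lower); with library size alone 12 rose and 1 fell, and with upper quartile scaling 2 rose and 9 fell. All 16 were low, with median FPKM of 5.87 in siUFBP1-labelled and 3.2 in siNC libraries. No mitochondrial model was found for glycine, which in human cells is charged in both compartments by products of 1 gene.

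Among the fibroin amino acids, the mitochondrial enzymes did not mirror the cytosolic ones. Alanine--tRNA ligase, mitochondrial (KWMTBOMO14991) had 6.23, 5.04 and 6.46 CPM in siUFBP1-labelled libraries, against 10.4, 8.99 and 9.4 CPM in siNC libraries, and fell (log2 fold change -0.68 ± 0.11 SE, edgeR adjusted p = 1.81e-05), though with library size alone it was at 0.12. Serine--tRNA ligase, mitochondrial (KWMTBOMO04439) had 8.44, 8.22 and 8.07 CPM in siUFBP1-labelled libraries, against 3.73, 4.44 and 3.71 CPM in siNC libraries, and rose 2.07-fold (log2 1.05 ± 0.11 SE, edgeR adjusted p = 8.22e-08). In neither did the groups overlap. Tyrosine--tRNA ligase, mitochondrial (KWMTBOMO10222) had 7.73, 5.92 and 7.46 CPM in siUFBP1-labelled libraries, against 8.63, 7.02 and 6.48 CPM in siNC libraries, with overlap and no call (-0.06 ± 0.12 SE, edgeR adjusted p = 0.693).

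Isoleucine--tRNA ligase, mitochondrial (KWMTBOMO12222) fell most of all members. It had 8.41, 9.12 and 7.95 CPM in siUFBP1-labelled libraries, against 34.8, 36.3 and 37.5 CPM in siNC libraries, 4.31-fold lower (log2 fold change -2.11 ± 0.07 SE, edgeR adjusted p = 2.63e-15). Its share of mitochondrial synthetase counts was 6.36 ± 0.401% in siUFBP1-labelled and 22.7 ± 1.26% in siNC libraries. The annotation of this model also lists a glycosyl hydrolase domain, which is not part of a tRNA synthetase, so its counts cannot be assigned to the enzyme alone. The mitochondrial phenylalanine model (KWMTBOMO12056), at -0.44 ± 0.07, likewise lists an endonuclease domain beside those of the enzyme.

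Aspartate offered a contrast between near namesakes. Of 2 models called aspartate--tRNA ligase, mitochondrial-like, KWMTBOMO13448 had 9.14, 10.1 and 10.5 CPM in siUFBP1-labelled libraries, against 3.69, 4.76 and 3.07 CPM in siNC libraries, the greatest increase of any member (log2 fold change 1.36 ± 0.12 SE, edgeR adjusted p = 1.92e-08). The other, KWMTBOMO13442, had 13.5, 12.7 and 13.6 CPM in siUFBP1-labelled libraries, against 12.9, 13.5 and 11.8 CPM in siNC libraries (0.06 ± 0.07 SE, edgeR adjusted p = 0.495). Their count ratio was 0.75 ± 0.0637 in siUFBP1-labelled and 0.299 ± 0.0477 in siNC libraries (exact permutation p = 0.1, the smallest possible). No source used here says how the authors' counting divided reads between like copies, so the split is uncertain.

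The remaining mitochondrial calls were smaller or rested on few reads. Arginine (KWMTBOMO07651) had 12.8, 11.2 and 11.4 CPM in siUFBP1-labelled libraries, against 9.1, 8.01 and 10.7 CPM in siNC libraries (log2 fold change 0.35 ± 0.10 SE, edgeR adjusted p = 0.00408), a call lost with upper quartile scaling. Methionine (KWMTBOMO15525) at 0.29 ± 0.10 lost its call without siUFBP1 replicate 1 (0.25) and without siNC replicate 1 (0.20), with DESeq2's Wald test and with upper quartile scaling. Cysteine (KWMTBOMO13586) at 0.26 ± 0.11 passed at an edgeR adjusted p of 0.0477 although its groups overlapped, and lost its call without siUFBP1 replicate 2 or 3 or siNC replicate 2 or 3 (0.16 to 0.30), with upper quartile scaling (0.12), with a mean count of at least 10, with DESeq2's Wald test and with limma-voom. Tryptophan (KWMTBOMO06895) was at -0.37 ± 0.11.

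Both proline models had under 2 CPM in every library. KWMTBOMO14680 had 0.911, 0.513 and 0.653 CPM in siUFBP1-labelled libraries, against 1.63, 1.48 and 1.43 CPM in siNC libraries (log2 fold change -1.14 ± 0.27 SE, edgeR adjusted p = 0.00103), a call lost with library size alone (-0.33). KWMTBOMO14679, of the same gene number, was at -0.64 ± 0.27 with overlapping groups, and lost its call without siUFBP1 replicate 1 or 3 or siNC replicate 1 or 3 (-0.51 to -0.59) and with DESeq2's Wald test. Summed, the pair gave -0.87 ± 0.17 SE (edgeR adjusted p = 0.000231). Asparagine (KWMTBOMO08541) at -0.20 ± 0.11, glutamate (KWMTBOMO09314) at -0.13 ± 0.11 and leucine (KWMTBOMO02720) at -0.07 ± 0.07 did not pass.

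For 12 amino acids the cytosolic and mitochondrial enzymes could be set against each other within each library. The log2 ratio of cytosolic to mitochondrial counts did not overlap between groups for 8 of the 12, higher in siUFBP1-labelled libraries for 2 and lower for 6. That is near the background, as 71.2% of all tested genes did not overlap in CPM. With 3 libraries a side the exact permutation p of each of the 8 was 0.1, the smallest possible. For alanine it was 5.70, 6.00 and 5.62 in siUFBP1-labelled libraries, against 3.83, 4.10 and 3.97 in siNC libraries, a difference of 1.81. Isoleucine had 2.99, 2.76 and 3.03 in siUFBP1-labelled libraries, against 0.89, 0.79 and 0.86 in siNC libraries, a difference of 2.08, where the mitochondrial model fell and the cytosolic one did not pass. That mitochondrial model is the one that also lists a glycosyl hydrolase domain, so the isoleucine ratio cannot be assigned to the enzymes alone. Serine went the other way, with 3.08, 3.03 and 3.12 in siUFBP1-labelled libraries, against 4.29, 4.12 and 4.27 in siNC libraries, a difference of -1.15. Methionine differed by -1.45, aspartate by -0.97, asparagine by -0.87, leucine by -0.72 and cysteine by -0.44. Tyrosine differed by 0.02, tryptophan by -0.02, phenylalanine by -0.12 and arginine by -0.30, all with overlap.

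**Figure D5:**
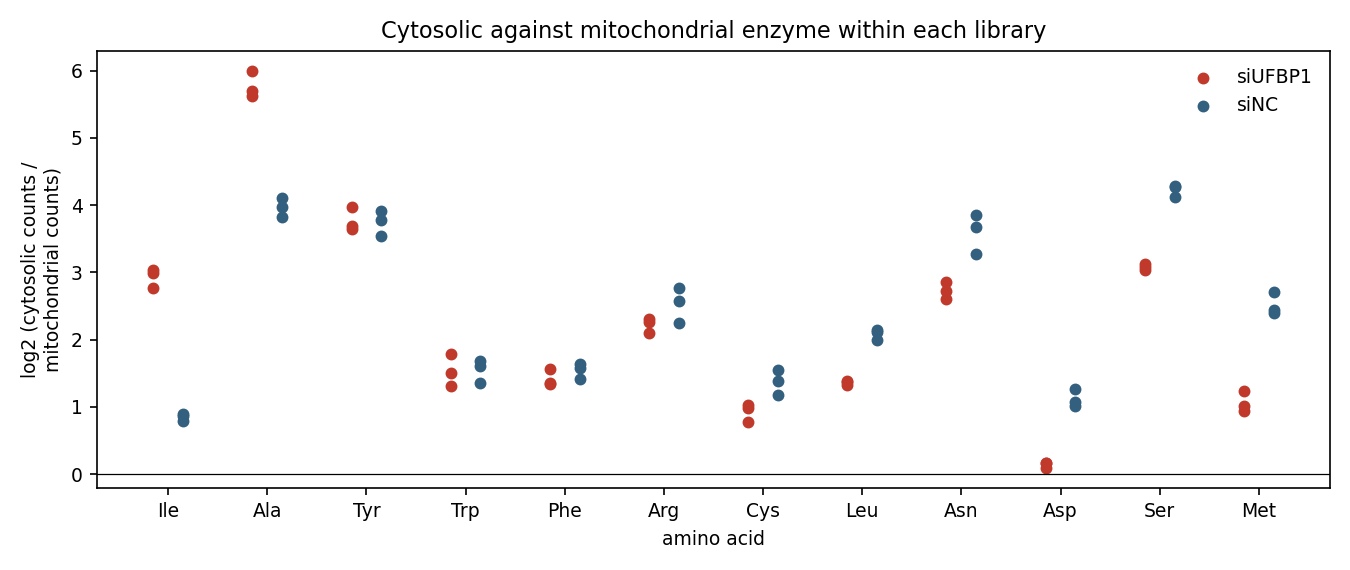
Log2 ratio of cytosolic to mitochondrial synthetase counts (vertical axis) for 12 amino acids (horizontal axis, ordered by difference), each point being a library, siUFBP1 left of siNC. The siUFBP1-labelled points lie above siNC for isoleucine and alanine and below it for cysteine, leucine, asparagine, aspartate, serine and methionine, and the other 4 overlap.

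The 3 members that are not synthetases act on tRNA already charged. Glutamyl-tRNA amidotransferase subunit B (KWMTBOMO11527), part of the mitochondrial enzyme that turns mischarged glutamyl-tRNA into glutaminyl-tRNA, had 32.3, 29.6 and 30.4 CPM in siUFBP1-labelled libraries, against 24, 20.8 and 25.1 CPM in siNC libraries, and rose (log2 fold change 0.41 ± 0.06 SE, edgeR adjusted p = 2.21e-05). Subunit A (KWMTBOMO15502) of the same enzyme was at -0.15 ± 0.09 and did not pass with all libraries after TMM. It passed as lower without siNC replicate 1 (-0.24) or with upper quartile scaling (-0.29), and as higher with library size alone. Methionyl-tRNA formyltransferase (KWMTBOMO05054), which formylates the mitochondrial initiator tRNA, was at 0.17 ± 0.13 and did not pass after TMM. With library size alone it passed as higher.

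Genes around the pathway were read in lists chosen by product name. After TMM all 6 cytosolic elongation factor models were higher (median log2 fold change 0.43; background 40% higher); 6 passed as higher with library size alone and 5 with upper quartile scaling. Among them elongation factor 1-alpha (KWMTBOMO03005), which carries charged tRNA to the ribosome, averaged 8603 ± 28.6 CPM in siUFBP1-labelled and 6228 ± 147 CPM in siNC libraries (log2 fold change 0.47 ± 0.03 SE). Elongation factor 2 (KWMTBOMO11731), which moves the ribosome on, averaged 2929 ± 15.4 CPM in siUFBP1-labelled and 2123 ± 62.3 CPM in siNC libraries (0.46 ± 0.03 SE). A second copy, elongation factor 1-alpha 2 (KWMTBOMO09089), had 874, 774 and 1877 counts in siUFBP1-labelled libraries, against 10, 15 and 8 counts in siNC libraries (5.63 ± 0.13 SE).

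The 3 mitochondrial elongation factor models all fell after TMM (median -0.56; background 28.4% lower), while with library size alone 2 rose and 1 fell. Elongation factor G (KWMTBOMO01766) averaged 25.1 ± 1.33 CPM in siUFBP1-labelled and 52 ± 1.08 CPM in siNC libraries (log2 fold change -1.06 ± 0.05 SE). Elongation factor Tu (KWMTBOMO05564) averaged 65.3 ± 2.43 CPM in siUFBP1-labelled and 96.1 ± 6.55 CPM in siNC libraries (-0.56 ± 0.05 SE), and elongation factor Ts (KWMTBOMO02216) was at -0.15 ± 0.06.

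Of 10 listed genes of amino acid supply and of the response to its lack, 9 were tested, and after TMM 7 fell and 2 did not pass (median -0.25; background 28.4% lower); with library size alone 5 rose and 3 fell. D-3-phosphoglycerate dehydrogenase (KWMTBOMO00497), the first enzyme of serine synthesis, had 480, 471 and 481 CPM in siUFBP1-labelled libraries, against 1103, 1065 and 1006 CPM in siNC libraries (log2 fold change -1.15 ± 0.03 SE). Serine hydroxymethyltransferase (KWMTBOMO10416), which makes glycine from serine, averaged 287 ± 0.665 CPM in siUFBP1-labelled and 546 ± 13.4 CPM in siNC libraries (-0.93 ± 0.03 SE). GCN1 (KWMTBOMO06045), the partner through which uncharged tRNA activates the kinase GCN2, averaged 30.9 ± 0.97 CPM in siUFBP1-labelled and 77.9 ± 5.54 CPM in siNC libraries (-1.33 ± 0.05 SE).

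A last list held enzymes that edit charged tRNA or serve selenocysteine tRNA. Of its 3 models 2 rose and 1 fell after TMM (background 40% higher, 28.4% lower), and 2 rose and none fell with library size alone. D-aminoacyl-tRNA deacylase (KWMTBOMO03910) was at -0.61 ± 0.21 and tRNA selenocysteine 1-associated protein 1 (KWMTBOMO11426) at 0.20 ± 0.08. KWMTBOMO06429, at 1.07 ± 0.11, carries conflicting names, an alanyl-tRNA editing protein in Swiss-Prot and an aminotransferase in NR. The authors' deposited table calls 12 of the 43 members, 4 as higher and 8 as lower. They were the same 12 that here passed with at least a 2-fold change.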

How the data were processed

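Silkworm RNA libraries labelled siUFBP1 and siNC (3 each, group and replicate number from the sample titles) were prepared with SMARTER mRNA-Seq chemistry (per the labels' protocols) and processed with fastp and HISAT2, per the submitters' processing notes. Tool versions, the counting program, its handling of strand and of shared reads, and the build of the genome: none is given in the sources used here. Raw read counts per gene model are in the deposited table, together with FPKM values, which per the file headers are per length and per library. The authors' log2 fold changes, FDR values and calls stand in the same deposited table. Gene numbers in the KEGG column were present for 40 members and all 40 matched the RefSeq gene list, from which only names were taken; 8 models form 4 pairs with the same gene number.

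The 43 members, the comparison and marker lists and the tests were chosen with earlier results of these data known. Models were filtered with filterByExpr, which left out 6148 of 16877 models holding 0.0479% of counts; all 43 members were tested. The main test was edgeR (4.0.16) quasi-likelihood in R 4.3.3 with TMM scaling and group as the only term, adjusted over all 10729 models (Benjamini-Hochberg, threshold 0.05). The common biological coefficient of variation was 3.87%. Each SE was derived from the log2 fold change and the square root of its F statistic. Exact two-sided permutation tests over libraries were used for ratios. DESeq2 (1.42.0) and limma (3.58.1, voom on counts, trend on log2(FPKM + 1) and log2(FPKM + 0.1) with a mean FPKM of at least 1) served as alternatives. Replicate pairs differed beyond sampling noise (chi-square per degree of freedom 2.68 to 14.4), so each library was kept. A floor of 3 counts covers counting error only.

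The members named with all their values are the enzymes for glycine, alanine, serine and tyrosine and, in each compartment, the 3 greatest increases and decreases that passed. From each list up to 3 genes with the smallest adjusted p are named. The phenylalanine subunits, the paired models, asparagine, the aspartate namesake KWMTBOMO13442, amidotransferase subunit B and the selected domains were added after their values were seen.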

Additional observations from a re-analysis of the deposited data

How the results depend on the processing

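Counts of called cytosolic and mitochondrial models stayed within 1.5 times under DESeq2's size factors, limma-voom, both filter alternatives, models of 1 gene summed, and the removal of 42 storage, lipoprotein and silk genes before scaling. They depended on the scaling between libraries. With library size alone, and with limma on log2(FPKM + 1) or log2(FPKM + 0.1), 15 cytosolic models were higher and 6 lower, 12 mitochondrial models were higher and 1 lower, and all 3 of the others were called. With upper quartile scaling 2 mitochondrial models were higher and 2 of the other members were called. DESeq2's Wald test left 3 mitochondrial models higher. A change of at least 1.5-fold, asked for after the data were seen, left 9 cytosolic models lower, 2 mitochondrial models higher and 0 of the other members, of which 1 passed edgeR's adjusted p. Among the 15 models whose NR or Swiss-Prot names state the cytosol, 1 was higher and 8 lower. Leaving out each library in turn gave 2 cytosolic models higher and 13 to 14 lower, 4 mitochondrial models higher and 5 to 6 lower, and 1 to 2 of the other members called, 2 without siNC replicate 1. As differences in share (siUFBP1 minus siNC, percentage points), FPKM in place of counts gave 9.02 for alanine, -0.403 for tyrosine and 22 for glycine with alanine.

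Log2 fold changes turned positive for 20 members with library size alone and with both FPKM fits, given here in that order (FPKM + 1 before FPKM + 0.1). The cytosolic ones were aspartate 0.32, 0.28 and 0.29, cysteine (KWMTBOMO07783) 0.66, 0.56 and 0.63, cysteine (KWMTBOMO07784) 0.63, 0.53 and 0.60, isoleucine 0.79, 0.72 and 0.76, and leucine 0.06, 0.04 and 0.04. The others were lysine 0.26, 0.24 and 0.25, serine 0.71, 0.68 and 0.69, threonine 0.31, 0.27 and 0.29, tryptophan 0.41, 0.37 and 0.39, tyrosine 0.75, 0.72 and 0.73, and valine 0.20, 0.12 and 0.18. The mitochondrial ones were alanine 0.12, 0.05 and 0.07, asparagine 0.61, 0.48 and 0.58, glutamate 0.68, 0.52 and 0.65, leucine 0.73, 0.59 and 0.70, phenylalanine 0.37, 0.30 and 0.34, proline 0.17, 0.10 and 0.14, tryptophan 0.44, 0.35 and 0.40, and tyrosine 0.74, 0.58 and 0.70, beside amidotransferase subunit A 0.66, 0.49 and 0.62. Upper quartile scaling turned arginine to -0.09, glutamine to -0.09, histidine to -0.08 and phenylalanine beta to -0.13 in the cytosol and aspartate (KWMTBOMO13442) to -0.08 in the mitochondrion, none of which had passed. Without a filter cytosolic isoleucine was at 0.01. With each library left out in turn, cytosolic isoleucine ran from -0.04 to 0.02, phenylalanine beta from -0.04 to 0.04 and mitochondrial tyrosine from -0.14 to 0.07. Among the fits on counts, a change of scaling shifts every gene alike by construction, by 0.80 at the median with library size alone. The other settings also change which values, genes or libraries enter, and the part of each in these shifts was not tested.

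The replicate numbers are shared by the groups but did not pair the libraries: deviations of same-numbered libraries correlated at 0.0242, -0.0187 and 0.0184. With the replicate number as a block, 2 cytosolic models were higher and 14 lower, and 5 mitochondrial models were higher and 5 lower. The mitochondrial proline model KWMTBOMO14679 lost its call under the block (-0.63). Depth limits models with few reads, such as both mitochondrial proline models at under 2 CPM.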
